A study of Mus musculus with 6 samples.

Results

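The mitosis and cytokinesis genes are 55 genes, examined here in ILC2s (group 2 innate lymphoid cells), which lack antigen receptors and make type 2 cytokines. The genes were chosen by name, as kinases, kinesins, kinetochore, condensin and cytokinesis genes, with earlier results of these data known. All 55 were found among the 17546 genes of the deposited table and passed the filter on low counts, which left 13325 genes. Bulk RNA-seq was done on sorted lung ILC2s of BALB/c mice given 3 injections of 1 µg IL-33, the alarmin that activates these cells. In culture, all cells received 10 ng/mL of IL-2 and 10 ng/mL of IL-7. The Yoda1 group was exposed for 24 h to 10 µM Yoda1, a small molecule that opens the mechanosensitive cation channel Piezo1, and the DMSO group to the solvent DMSO for the same time. Each group had 3 libraries, Yoda1 4 to 6 and DMSO 1 to 3 as numbered in the labels, made from 10 ng of RNA each. The table's own treatment column and the design text call the controls PBS, while the sample labels call them DMSO, and the sample labels were followed. The labels do not state whether the 3 libraries of a group derive from different animals or cultures, and the p-values therefore reflect only library-to-library spread, which may be technical. The labels also carry a number that Yoda1 4 and Yoda1 5 share (21) and that DMSO 2 and DMSO 3 share (19), so a group may hold fewer than 3 independent samples.

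Cells enter mitosis when cyclin B binds and activates the kinase CDK1, with Polo-like and Aurora kinases acting beside it to build the spindle and condense the chromosomes. Kinetochores attach the chromosomes to microtubules, the spindle checkpoint holds back the anaphase-promoting complex (APC/C) until all are attached, and a central spindle then guides cytokinesis. Most of these transcripts accumulate in G2 and mitosis and are low in resting cells, so they mark dividing cells in a lymphocyte population such as ILC2s stimulated with IL-33, IL-2 and IL-7.

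Total expected counts ran from 14214048 to 31627519 per library. Levels are given as CPM, counts rescaled with TMM so that libraries have an equal effective total, and a change is a log2 fold change, Yoda1 over DMSO, given with its standard error (SE). Of 13 ILC2 markers all were detected, with a summed level of 11907, 11503 and 12679 CPM in Yoda1 4, 5 and 6, against 10337, 11021 and 11082 CPM in DMSO 1, 2 and 3. Il5 made up most of this sum, at 6932 to 8429 CPM with Yoda1 and 5308 to 5932 CPM with DMSO. Of the 13, Il2ra and Icos were called lower (log2 fold change -0.67 and -0.89, adjusted p = 0.00707 and 0.00423) and Arg1 higher (0.93, adjusted p = 0.00868); these 3 are named after their values were seen. Of the 13 fold changes 7 were negative, and the median was -0.06; Thy1 reached at most 1.23 CPM with Yoda1 and 2.87 CPM with DMSO. DMSO 2 and DMSO 3, the DMSO libraries that share a label number, stood apart in epithelial RNA. The airway secretory gene Scgb1a1 was at 0, 0 and 0.0597 CPM in Yoda1 4, 5 and 6, and at 0, 301 and 295 CPM in DMSO 1, 2 and 3. The 7 epithelial markers, of which 6 were analysed here, summed to 55.2 to 77.7 CPM with Yoda1 and 91.0 to 406 CPM with DMSO. The markers of NK cells and ILC1s, 5 of 7 analysed here and mostly Gzmb and Gzma, summed to 43.9 to 63.3 CPM with Yoda1 and 154 to 210.4 CPM with DMSO. Those of T cells, 4 of 8 and mostly Cd3g, summed to 29.0 to 38.6 CPM with Yoda1 and 45.1 to 51.02 CPM with DMSO. Macrophage, monocyte and dendritic cell markers, 7 of 9 and led by Cd68, summed to 24.4 to 27.3 CPM with Yoda1 and 11.96 to 16.5 CPM with DMSO, and erythroid Hba-a1 was at 8.45 to 16.8 CPM with Yoda1 and 5.73 to 8.33 CPM with DMSO. Granulocyte and mast cell markers (3 of 8), B cell Cd79b and endothelial Pecam1 summed to at most 8.20, 31.6 and 28.4 CPM with Yoda1 and 8.66, 39.8 and 34.5 CPM with DMSO. The part of these other cells in the results on mitosis genes was not tested.

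Transcripts of cyclin B1, Plk1, Cdc20, Ube2c, Top2a and further mitosis and cytokinesis genes were lower in ILC2s exposed to Yoda1. Of the 55 genes, 25 (45.5%) passed the test as lower and none as higher (edgeR quasi-likelihood, Benjamini-Hochberg adjusted over all 13325 genes, threshold 0.05), while 0.923% of all tested genes were called lower and 0.57% higher. The log2 fold change was negative for 54 of the 55, against 49% of all tested genes, and the median was -0.73, against 0.01 over all tested genes. The values ran from -1.08 for Cenpf to 0.01 for Bub3. Summed over the 55 genes, the level was 5734, 5501 and 5471 CPM in Yoda1 4, 5 and 6, against 8722, 9133 and 9147 CPM in DMSO 1, 2 and 3. As shares of a library's effective total after TMM scaling, these sums were 0.573%, 0.5501% and 0.547% in the Yoda1 libraries. In the DMSO libraries they were 0.872%, 0.913% and 0.915%, with no overlap between the groups. In bulk samples, fewer dividing cells and less of these RNAs per dividing cell cannot be told apart.

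All 3 Yoda1 values lay below all 3 DMSO values for 47 of the 55 genes (85.5%), where 12% of all tested genes had that order and 10.6% the opposite one. Counted separately, 47 had an unadjusted p under 0.05 as lower and none as higher, against 7.11% and 7.39% of all tested genes. The 8 genes whose groups overlapped were Cdc25c, Bub3, Kif20b, Kif4, Kif18a, Incenp, Anln and Espl1. The number that passed the adjusted test depended on single libraries. It was 2 without DMSO 1, 2 without DMSO 2 and 0 without DMSO 3 (43 at an unadjusted p under 0.05, edgeR). It was 18 without Yoda1 4, 3 without Yoda1 5 and 22 without Yoda1 6. Of all genes tested in these fits, 0.18%, 0.0933%, 0.0358%, 0.714%, 0.193% and 1.04% were called lower, in the same order. None of the 55 passed in all of these 6 fits. A suffix in the labels was 0 for DMSO 1 and DMSO 2 and another number for the other 4 libraries. With this suffix as a term, DMSO 3 was the only control left to compare with the Yoda1 libraries. The median of the 55 genes was then -0.77, with 53 negative values. With libraries of a shared label number summed, the median was -0.74 and 0 passed (44 at an unadjusted p under 0.05, edgeR). In that fit 0 of all 14302 tested genes were called lower. The share of all tested genes at an unadjusted p under 0.05 was not computed for these fits. DESeq2 called 39 of the 55 lower, with 4.54% of the genes it tested called lower, and limma voom called 31, with 1.34%. DMSO 1 was also taken as the only control, chosen after seeing the data because it had no Scgb1a1. All 55 fold changes were then negative, with a median of -0.66.

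**Figure D1:**
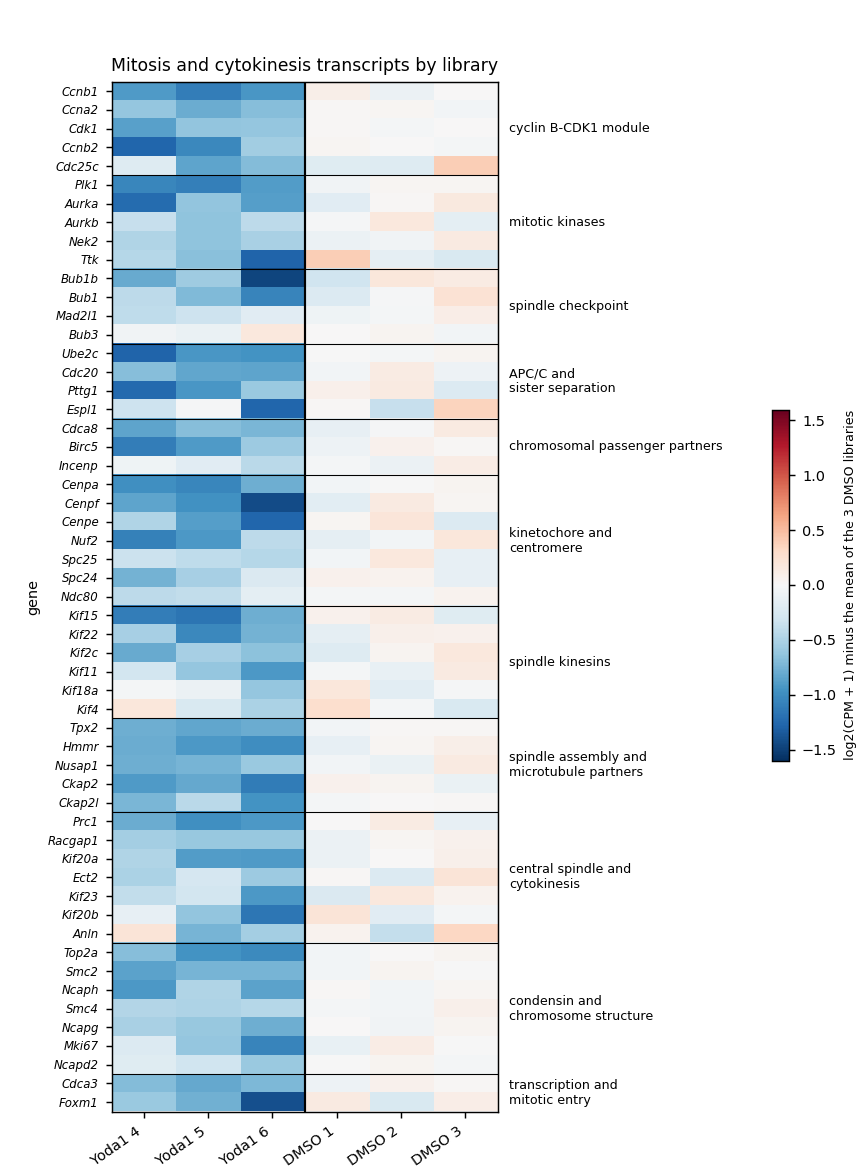
Level of each of the 55 mitosis and cytokinesis genes (rows, grouped by role) in each library (columns, Yoda1 4 to 6 left of DMSO 1 to 3), as log2(CPM + 1) minus the mean of the 3 DMSO libraries; blue is lower and red is higher. The Yoda1 columns are blue for nearly every gene, with medians of -0.62, -0.68 and -0.76 over the genes in Yoda1 4, 5 and 6, and Bub3 is an exception.

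The cyclin B-CDK1 module, the kinase that drives entry into mitosis, fell in 4 of its 5 genes, with a median log2 fold change of -0.71. Ccnb1, which encodes cyclin B1, the main mitotic partner of CDK1, was at 179, 155 and 175 CPM in Yoda1 4, 5 and 6, against 356, 313 and 336 CPM in DMSO 1, 2 and 3. The groups were far apart: the highest Yoda1 library was well under the lowest DMSO library. Ccnb1 fell by 49.4%, a log2 fold change of -0.98 (SE 0.10, edgeR quasi-likelihood, Benjamini-Hochberg adjusted p = 0.00537), and it passed in 5 of the 6 fits that each leave out 1 library, with an adjusted p of 0.0606 without DMSO 3. Ccnb1 lies on chromosome 13 at 100778650 to 100786570 on the minus strand (GRCm38). Ccna2, cyclin A2, which acts in S phase and G2, was at 157, 139 and 150.1 CPM with Yoda1 and 245, 247 and 234 CPM with DMSO. Its groups did not overlap, and it fell by 0.70 on the log2 scale (SE 0.10, adjusted p = 0.0152). Cdk1 itself fell by 38.9% (log2 fold change -0.71, adjusted p = 0.0232) and Ccnb2, cyclin B2, fell by 47.5% (log2 fold change -0.93, adjusted p = 0.0456). Ccnb2 differed most among the Yoda1 libraries, with 125 CPM in Yoda1 6 and 76.2 CPM in Yoda1 4. Cdc25c, the phosphatase that removes the inhibitory phosphates from CDK1, was at 24.0, 15.003 and 16.8 CPM with Yoda1 and 24.2, 23.9 and 36.9 CPM with DMSO. Yoda1 4 was level with DMSO 1 and DMSO 2, and the change did not pass (log2 fold change -0.60, 95% interval -1.23 to 0.02, adjusted p = 0.355).

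Of the 5 mitotic kinases, Plk1 and Aurka fell and Aurkb, Nek2 and Ttk did not pass; the median log2 fold change was -0.82. Plk1, the Polo-like kinase that acts in centrosome maturation, mitotic entry and cytokinesis, had the smallest p of the 55 genes and ranked 14 among all tested genes. Its level was 136, 131 and 152 CPM in Yoda1 4, 5 and 6, against 271, 288 and 288 CPM in DMSO 1, 2 and 3. The spread within each group was small beside the gap. Plk1 fell by 50.5%, a log2 fold change of -1.02 (SE 0.10, edgeR quasi-likelihood, Benjamini-Hochberg adjusted p = 0.00497), and passed in 5 of the 6 leave-one-out fits, with an adjusted p of 0.0606 without DMSO 3. Plk1 lies on chromosome 7 at 122159439 to 122169873 on the plus strand (GRCm38). Aurka, the Aurora kinase of the spindle poles, was at 97.4, 147 and 124 CPM with Yoda1 and 202, 233 and 256 CPM with DMSO. The groups did not overlap, and Aurka fell by 46.7% (log2 fold change -0.91, SE 0.17, adjusted p = 0.0394), but passed in none of the leave-one-out fits, where its adjusted p ran from 0.0618 to 0.192. Ttk, the kinase also called MPS1 that starts the checkpoint signal, was at 29.2, 25.0 and 16.1 CPM with Yoda1 and 53.5, 36.6 and 34.0 CPM with DMSO. All Yoda1 values lay below the DMSO values, but DMSO 1 was far above the other DMSO libraries and the adjusted p was 0.213 (log2 fold change -0.82). Aurkb, the Aurora kinase of the chromosomal passenger complex, and Nek2, a kinase of centrosome separation, had log2 fold changes of -0.48 and -0.56, each with an adjusted p of 0.118.

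None of the 4 spindle checkpoint genes passed, and they differed widely among themselves. Bub1b, which encodes the checkpoint protein BubR1, was at 92.1, 109 and 57.9 CPM in Yoda1 4, 5 and 6, against 130.2, 184 and 178 CPM in DMSO 1, 2 and 3 (log2 fold change -0.93, adjusted p = 0.102). Bub1, the kinase that recruits checkpoint proteins to kinetochores, was at 50.7, 41.3 and 32.2 CPM with Yoda1 and 58.5, 67.1 and 79.9 CPM with DMSO (log2 fold change -0.73, adjusted p = 0.140). For both, every Yoda1 value was under every DMSO value, with Yoda1 6 the lowest library. Mad2l1, which encodes MAD2, the subunit that binds and inhibits CDC20, was at 78.0, 82.2 and 91.5 CPM with Yoda1 and 98.9, 102 and 111 CPM with DMSO (log2 fold change -0.31, adjusted p = 0.310). Bub3, the WD-repeat partner of BUB1 and BubR1, was at 358, 346 and 418 CPM with Yoda1 and 372, 384 and 361 CPM with DMSO. Its groups overlapped, and it was the only one of the 55 genes with a fold change that was not negative (0.01, 95% interval -0.22 to 0.23, adjusted p = 0.987); the sign turned with upper quartile factors, where it was -0.05, and without scaling factors, where it was -0.0032.

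Of the genes that act through the APC/C or at sister separation, Ube2c and Cdc20 fell and Pttg1 and Espl1 did not pass. Ube2c, the ubiquitin-conjugating enzyme of the APC/C, was at 119, 152 and 149 CPM in Yoda1 4, 5 and 6, against 288, 284 and 298 CPM in DMSO 1, 2 and 3. The DMSO libraries were close together and the Yoda1 libraries all far under them. Ube2c fell by 51.8%, a log2 fold change of -1.05 (SE 0.12, edgeR quasi-likelihood, Benjamini-Hochberg adjusted p = 0.00707), and passed in 3 of the 6 leave-one-out fits. It lies on chromosome 2 at 164769898 to 164778822 on the plus strand (GRCm38), and 22.8% of its annotated exon length is also exon of Tnnc2 on the other strand, so without a stated strand setting reads there cannot be assigned. Cdc20, the APC/C activator that the checkpoint inhibits, was at 264, 238 and 236 CPM with Yoda1 and 411, 464 and 399 CPM with DMSO, and fell by 42.1% (log2 fold change -0.79, SE 0.10, adjusted p = 0.00887) with no overlap. Pttg1, which encodes securin, the inhibitor of separase, was at 62.2, 77.8 and 98.8 CPM with Yoda1 and 157, 165 and 128 CPM with DMSO, just outside the threshold (log2 fold change -0.92, adjusted p = 0.0537). Espl1, which encodes separase, the protease that cuts cohesin, was at 40.6, 50.7 and 20.7 CPM with Yoda1 and 51.7, 39.5 and 65.7 CPM with DMSO. Its groups overlapped widely and its interval was among the broadest, -1.22 to 0.25 around a log2 fold change of -0.48 (adjusted p = 0.547).

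Among the partners of Aurora B in the chromosomal passenger complex, which corrects faulty attachments, Cdca8 and Birc5 fell and Incenp did not pass. Cdca8, which encodes borealin, was at 132, 148 and 143 CPM in Yoda1 4, 5 and 6, against 216, 235 and 263 CPM in DMSO 1, 2 and 3 (log2 fold change -0.76, SE 0.11, adjusted p = 0.0179). Birc5, which encodes survivin, was at 154, 177 and 222 CPM with Yoda1 and 313, 349 and 336 CPM with DMSO (log2 fold change -0.85, SE 0.14, adjusted p = 0.0269). Neither overlapped between groups, though Yoda1 6 had the highest Birc5 of its group. Incenp, the scaffold of the complex, was at 172, 159 and 133 CPM with Yoda1 and 176, 168 and 196 CPM with DMSO, with Yoda1 4 above DMSO 2, and had a log2 fold change of -0.22 (95% interval -0.51 to 0.07, adjusted p = 0.486).

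Of 7 kinetochore and centromere genes, Cenpa and Cenpf fell and 5 did not pass; in all 7 the groups did not overlap, and the median log2 fold change was -0.80. Cenpa, the histone H3 variant that marks centromeres, was at 113, 109 and 129.7 CPM in Yoda1 4, 5 and 6, against 218, 223 and 232 CPM in DMSO 1, 2 and 3. Cenpa fell by 47.8%, which was large beside the spread in either group (log2 fold change -0.94, SE 0.11, edgeR quasi-likelihood, Benjamini-Hochberg adjusted p = 0.00734). Cenpf, a large protein of the outer kinetochore, was at 49.8, 45.7 and 33.0 CPM with Yoda1 and 80.1, 99.9 and 92.2 CPM with DMSO. It had the most negative fold change of the 55 genes, -1.08 (SE 0.19, adjusted p = 0.0320), and fell by 52.8%; it lies on chromosome 1 at 189640606 to 189688086 on the minus strand (GRCm38). The 4 subunits of the NDC80 complex, which binds microtubules, did not pass: Nuf2 had a log2 fold change of -0.80 (adjusted p = 0.0993), Spc24 of -0.50 (0.204), Spc25 of -0.41 (0.198) and Ndc80 of -0.32 (0.313). Ndc80, with the largest p of the 7, was at 67.2, 68.4 and 80.6 CPM with Yoda1 and 88.2, 88.3 and 93.8 CPM with DMSO. Cenpe, the kinesin of the kinetochore, had a log2 fold change of -0.87 (adjusted p = 0.0921).

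Of the 6 spindle kinesins, Kif15 and Kif22 fell and 4 did not pass, with log2 fold changes from -1.04 to -0.18. Kif15, a kinesin that helps keep the spindle bipolar, was at 26.1, 25.0 and 33.1 CPM in Yoda1 4, 5 and 6, against 60.2, 62.7 and 50.02 CPM in DMSO 1, 2 and 3, and fell by 51.3% (log2 fold change -1.04, SE 0.19, adjusted p = 0.0375). Kif22, which pushes chromosome arms to the equator, was at 229, 162 and 196 CPM with Yoda1 and 301, 351 and 348 CPM with DMSO, and fell by 41.3% (log2 fold change -0.77, SE 0.14, adjusted p = 0.0386). Groups did not overlap in either, and each passed in 1 of the 6 leave-one-out fits. Kif4, a chromosome-bound kinesin of the midzone, was at 73.3, 54.3 and 45.1 CPM with Yoda1 and 78.0, 63.4 and 54.5 CPM with DMSO. Its groups overlapped, with a log2 fold change of -0.18 (95% interval -0.68 to 0.31, adjusted p = 0.755). Kif2c, a microtubule depolymerase, and Kif11, the motor that separates spindle poles, did not pass at -0.67 (adjusted p = 0.0643) and -0.59 (0.147), and Kif18a, which damps chromosome movements, was at -0.25 (0.706).

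Spindle assembly and microtubule partners fell in 4 of 5 genes, with a median log2 fold change of -0.81. Tpx2, which activates Aurora A and promotes microtubule growth near chromosomes, was at 137, 131 and 135 CPM in Yoda1 4, 5 and 6, against 228, 239 and 238 CPM in DMSO 1, 2 and 3. The libraries of each group were almost level, and Tpx2 fell by 42.8% (log2 fold change -0.81, SE 0.10, edgeR quasi-likelihood, Benjamini-Hochberg adjusted p = 0.00734). Hmmr, a spindle pole protein, was at 64.1, 59.0 and 55.6 CPM with Yoda1 and 102, 114 and 120.0 CPM with DMSO (log2 fold change -0.91, SE 0.13, adjusted p = 0.0162). Nusap1, a microtubule bundling protein, fell by 39.0% and Ckap2, a spindle-associated protein, fell by 49.4% (adjusted p = 0.0279 and 0.0464). Ckap2l, its paralog, was at 78.7, 97.1 and 66.8 CPM with Yoda1 and 128, 131 and 133 CPM with DMSO; the groups did not overlap, but the change did not pass (log2 fold change -0.69, adjusted p = 0.0703).

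Central spindle and cytokinesis genes fell in 3 of 7, with a median log2 fold change of -0.59. Prc1, which cross-links the antiparallel microtubules of the central spindle, was at 141, 124 and 129 CPM in Yoda1 4, 5 and 6, against 246, 268 and 224 CPM in DMSO 1, 2 and 3, and fell by 46.8% (log2 fold change -0.91, SE 0.11, adjusted p = 0.00873). Racgap1, the GTPase-activating subunit of centralspindlin, was at 147, 140.4 and 141 CPM with Yoda1 and 201, 220.4 and 225 CPM with DMSO, and fell by 33.6% (log2 fold change -0.59, SE 0.10, adjusted p = 0.0320). Both had clearly separate groups with Yoda1 libraries close together. Kif20a, the kinesin that brings PLK1 and Aurora B to the central spindle, fell by 40.8% (log2 fold change -0.76, adjusted p = 0.0404); 29.3% of its exon length is also exon of Cdc23 on the other strand. Kif23, the motor subunit of centralspindlin, Ect2, an exchange factor needed for the cleavage furrow, and Kif20b, a kinesin of abscission, did not pass, with log2 fold changes of -0.53, -0.46 and -0.60 and adjusted p of 0.268, 0.243 and 0.347. Anln, the actin-binding scaffold of the contractile ring, was at 41.6, 20.9 and 24.3 CPM with Yoda1 and 37.2, 27.1 and 45.1 CPM with DMSO. Yoda1 4 was above DMSO 1 and DMSO 2, and the interval of the log2 fold change of -0.33 ran from -1.02 to 0.35 (adjusted p = 0.669).

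Condensin and chromosome structure genes fell in 3 of 7: Top2a, Smc2 and Ncaph. Top2a, the topoisomerase that untangles sister chromatids, was at 235, 195 and 186 CPM in Yoda1 4, 5 and 6, against 367, 379 and 387 CPM in DMSO 1, 2 and 3, and fell by 45.7% (log2 fold change -0.88, SE 0.11, edgeR quasi-likelihood, Benjamini-Hochberg adjusted p = 0.00887). Smc2, a condensin core ATPase, was at 100.2, 109 and 108 CPM with Yoda1 and 177, 187 and 182 CPM with DMSO, and fell by 41.9% (log2 fold change -0.78, SE 0.11, adjusted p = 0.0119). In both the libraries of each group were close and the groups far apart. Its partner Smc4 did not pass, with a smaller log2 fold change of -0.48 (adjusted p = 0.0579); the difference between the 2 was not tested. Of the condensin I subunits, Ncaph fell by 40.4% (adjusted p = 0.0493), while Ncapg had an adjusted p of 0.0667. Ncapd2, the one with the largest p, was at 129.5, 118 and 98.0 CPM with Yoda1 and 148, 152 and 145 CPM with DMSO (log2 fold change -0.36, adjusted p = 0.243). Mki67, which encodes the proliferation marker Ki-67, a coat of mitotic chromosomes, was at 274, 208 and 153 CPM in Yoda1 4, 5 and 6, against 294, 347 and 318 CPM in DMSO 1, 2 and 3. All Yoda1 libraries were under all DMSO libraries, but they were spread out, with Yoda1 4 just below DMSO 1. The log2 fold change of -0.60 did not pass (95% interval -1.03 to -0.16, adjusted p = 0.189).

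Of the last pair, Cdca3 fell and Foxm1 did not pass. Cdca3, an adaptor of protein degradation at mitotic entry, was at 75.4, 69.2 and 74.1 CPM in Yoda1 4, 5 and 6, against 116, 129 and 125 CPM in DMSO 1, 2 and 3 (log2 fold change -0.75, SE 0.12, adjusted p = 0.0217). Foxm1, the transcription factor that drives genes of G2 and mitosis, was at 31.6, 27.8 and 17.5 CPM with Yoda1 and 52.9, 40.3 and 51.7 CPM with DMSO. Its groups did not overlap, but the spread was wide for its level, and the log2 fold change of -0.91 had a 95% interval of -1.47 to -0.35 and an adjusted p of 0.121.

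**Figure D2:**
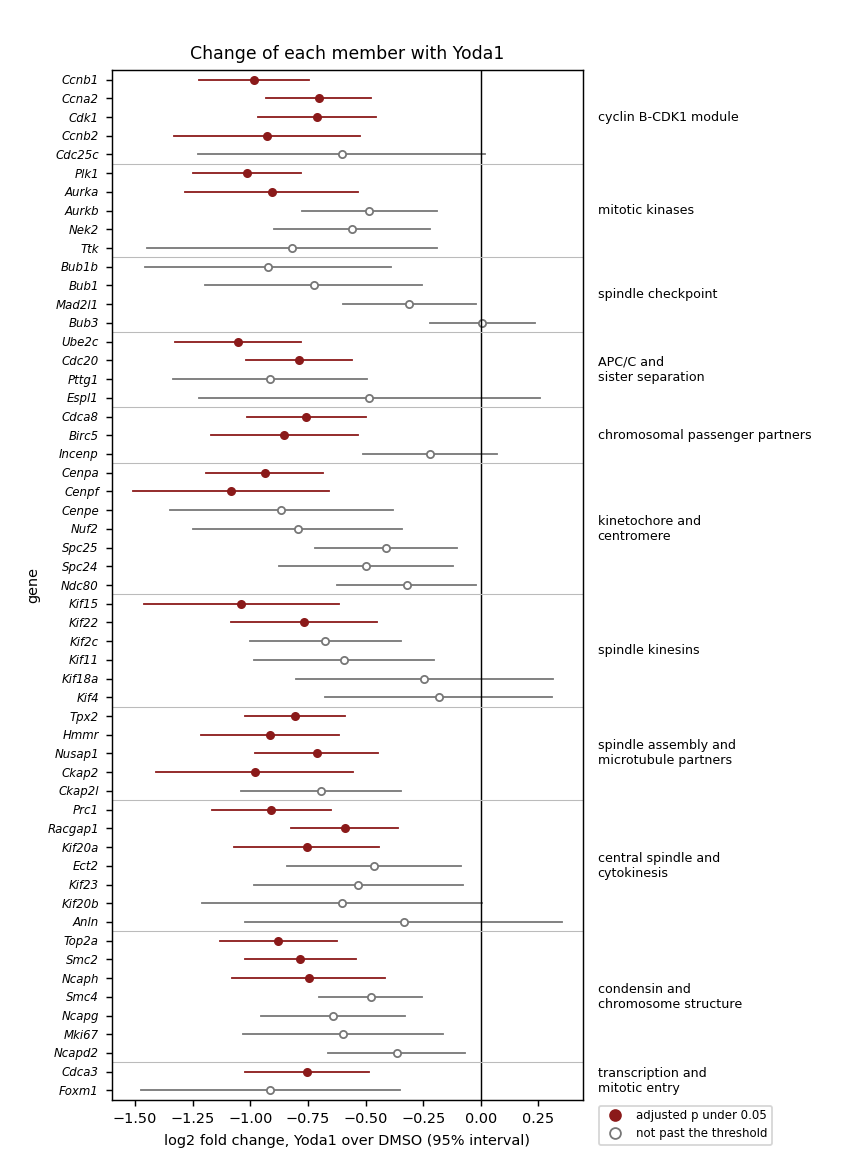
Log2 fold change of Yoda1 over DMSO (x axis) for each of the 55 genes, grouped by role, with 95% intervals from the edgeR fit over all 6 libraries; filled points passed the adjusted threshold. The 25 filled points lie between -1.08 and -0.59, and the intervals of 8 genes include 0.

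The promoters of the genes were read from RefSeq windows of GRCm38.p6 that run from 250 bases before to 50 bases after a start of transcription. Windows were present for 46 of the 55 genes, 49 windows in all. Many G2 and mitosis genes are known to carry a CHR element, the cell cycle genes homology region, with the core TTTGAA, often beside CCAAT boxes, and these letters were searched for. The 6 stretches printed for comparison run from 110 bases before to 10 bases after the start, 5′ to 3′ on the strand of the gene. They are the promoters of 5 genes that fell, Cdk1, Ccnb2, Ccnb1, Cdc20 and Ube2c, and of Bub3, shown as the one gene whose fold change was not negative. Capitals mark TTTGAA and CCAAT, or TTCAAA and ATTGG where the motif lies on the other strand. The positions are chr10:69352903-69353022 on the minus strand for Cdk1, chr9:70421545-70421664 minus for Ccnb2, chr13:100786477-100786596 minus for Ccnb1, chr4:118437334-118437453 minus for Cdc20, chr2:164769819-164769938 plus for Ube2c and chr7:131560260-131560379 plus for Bub3.
Cdk1: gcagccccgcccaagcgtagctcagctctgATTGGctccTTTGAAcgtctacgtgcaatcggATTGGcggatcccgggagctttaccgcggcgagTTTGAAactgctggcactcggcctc
Ccnb2: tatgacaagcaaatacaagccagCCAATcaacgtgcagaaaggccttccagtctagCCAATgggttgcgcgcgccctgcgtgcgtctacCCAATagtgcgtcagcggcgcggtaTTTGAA
Ccnb1: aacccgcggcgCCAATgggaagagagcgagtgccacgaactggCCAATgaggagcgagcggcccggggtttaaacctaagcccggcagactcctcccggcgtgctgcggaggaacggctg
Cdc20: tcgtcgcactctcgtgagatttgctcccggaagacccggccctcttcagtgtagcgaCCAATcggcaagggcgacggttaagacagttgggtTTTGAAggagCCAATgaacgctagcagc
Ube2c: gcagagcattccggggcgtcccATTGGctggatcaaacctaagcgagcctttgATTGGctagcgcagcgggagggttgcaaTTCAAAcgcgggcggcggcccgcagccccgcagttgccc
Bub3: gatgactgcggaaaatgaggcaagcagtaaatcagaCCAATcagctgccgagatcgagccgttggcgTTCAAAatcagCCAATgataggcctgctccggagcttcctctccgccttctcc

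In these stretches Cdk1 holds 2 TTTGAA cores and Ccnb2, Cdc20, Ube2c and Bub3 hold 1 each, while Ccnb1 holds none. Each of the 6 holds at least 2 CCAAT boxes.

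Over all windows of the 55 genes, TTTGAA on either strand was found in 38 of 49 (77.6%), against 17.9% of all 32851 promoter windows and 12.4% of those of tested genes. Within 50 bases of the start the shares were 67.3% of the windows of the 55 genes, 4.94% of all windows and 3.12% of those of tested genes. CCAAT was found in 75.5% of the windows of the 55 genes, against 37.4% of all windows and 38.4% of those of tested genes. Both motifs together were in 67.3%, against 6.95% of all windows and 5.18% of those of tested genes. The E2F-type letters GCGGGAA were in 1 of the 49 windows (2.04%), against 4.60% of all windows and 8.38% of those of tested genes. Sites of different motifs shared a base in 1 of the 49 windows. A match is a run of letters, not a shown binding site. Forms of the CHR with other letters were not searched for, so a window without TTTGAA was not shown to lack a CHR. The 35 genes with TTTGAA had a median log2 fold change of -0.75 with 18 called lower, and the 11 without it a median of -0.75 with 4 called lower. The 11 were Birc5, Bub1, Ccnb1, Cenpe, Kif18a, Mad2l1, Ncaph, Nek2, Nuf2, Nusap1 and Pttg1.

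**Figure D3:**
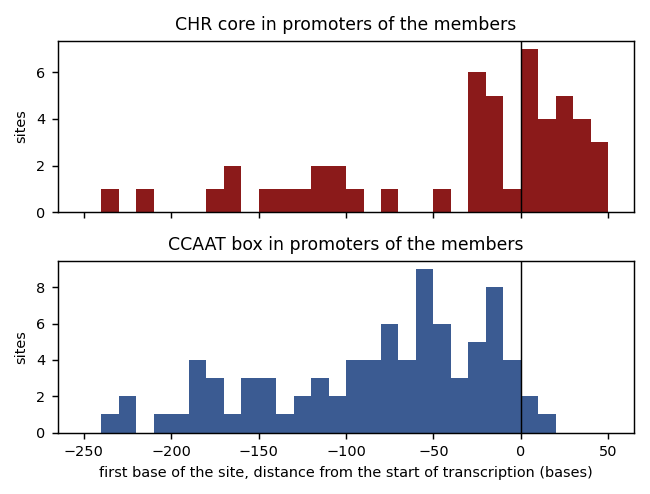
Number of TTTGAA sites (top, CHR core) and CCAAT sites (bottom) on either strand in the 49 promoter windows of the genes, by distance of the first base from the start of transcription in bases. TTTGAA sites cluster within 50 bases of the start, where 67.3% of the windows hold one, and CCAAT sites lie mostly upstream.

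Further genes of the same pathways were mostly not past the threshold. Of 66 other mitosis genes, 4 fell, where 0.923% of all tested genes were called lower, and none rose. At an unadjusted p under 0.05 in edgeR, 31 were lower and 0 higher, against 7.11% and 7.39% of all tested genes. All 3 Yoda1 values lay below all 3 DMSO values for 28 of the 66, against 12% of all tested genes. The log2 fold change was negative for 63, against 49% of all tested genes, with a median of -0.48. Kpna2, an importin that also controls spindle factors, was at 360.2, 384 and 457 CPM in Yoda1 4, 5 and 6, against 662, 688 and 729.9 CPM in DMSO 1, 2 and 3 (log2 fold change -0.79, adjusted p = 0.0119). Stmn1, the microtubule destabiliser stathmin, Arhgap11a and Knl1, the kinetochore platform for BUB1, had log2 fold changes of -0.64, -1.14 and -1.30 (adjusted p = 0.0348, 0.0383 and 0.0435). None of these 3 passed in any leave-one-out fit.

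The machinery these genes act on was mostly not called. Of 15 APC/C subunit genes with the activator Fzr1, none passed in either direction (2 at an unadjusted p under 0.05 as lower and 3 as higher, edgeR), with a median of 0.05; Anapc15 was at -0.84 (adjusted p = 0.0667) and Anapc7 at 0.49 (0.154). Of 10 genes of the cohesin ring, its loader and its regulators, none passed (1 at an unadjusted p under 0.05 as lower and 0 as higher, edgeR). Their median was -0.02, with Smc1a at -0.51 (adjusted p = 0.0966) and Wapl at 0.23 (0.530). DESeq2 called some of these, Anapc15, Anapc7 and Smc1a among them (adjusted p = 0.000629, 0.0227 and 0.00426). Of 6 tubulin genes Tuba1b fell, with a log2 fold change of -0.49 (adjusted p = 0.0179), but its reads are hard to tell from those of its near-identical copies Tuba1a and Tuba1c. A list of 25 regulators held the DREAM, MuvB and E2F groups, which govern transcription of these genes, and further factors such as Myb. Of the 25, Myb alone fell and none rose, where 0.923% of all tested genes were called lower. The median was -0.29, with 21 negative values. At an unadjusted p under 0.05 in edgeR, 7 were lower and 1 higher, against 7.11% and 7.39% of all tested genes. Myb, a transcription factor of lymphocyte growth, was at 6.71, 4.56 and 6.15 CPM with Yoda1 and 20.3, 28.1 and 21.2 CPM with DMSO (log2 fold change -2.0, SE 0.28, adjusted p = 0.0128). Mybl2, the MYB protein that binds MuvB, did not pass at -0.71 (adjusted p = 0.0709). Cdkn1a, the p53 target that inhibits CDKs, was at 464, 526 and 578 CPM with Yoda1 and 589.8, 551 and 558 CPM with DMSO, with overlapping groups and a log2 fold change of -0.11 (95% interval -0.34 to 0.11, adjusted p = 0.653).

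**Figure D4:**
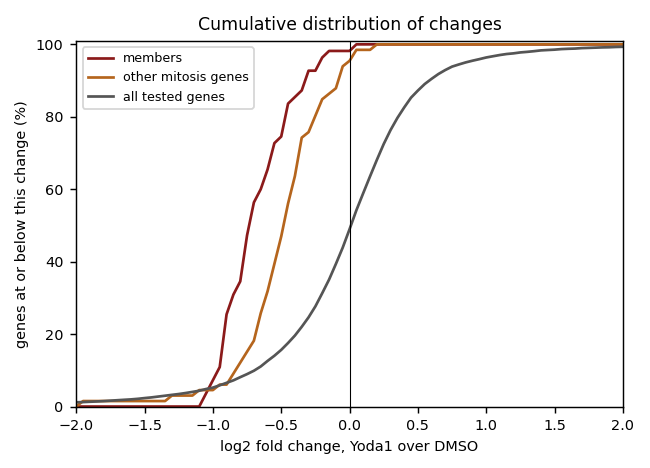
Cumulative share of genes (y axis, %) at or below a given log2 fold change of Yoda1 over DMSO (x axis) for the 55 mitosis and cytokinesis genes, 66 other mitosis genes and all 13325 tested genes. At -0.50 the curves stand at 74.5%, 46.97% and 15.6%.

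Among the Yoda1 libraries, the genes did not vary alike. In Yoda1 6 the deviation of a gene from the other Yoda1 libraries, in log2(CPM + 1), tended to be lower for genes with longer annotated exons. In Yoda1 4 it tended to be higher for such genes. Each deviation is taken against the other libraries of the group, so these opposite trends are not independent and do not single out 1 library. Over the 55 genes Spearman's correlation was -0.39 in Yoda1 6, 0.45 in Yoda1 4 and 0.03 in Yoda1 5, and it was 0.05, -0.17 and 0.13 in DMSO 1, 2 and 3. Over 13003 tested genes with a length it was -0.31 in Yoda1 6, 0.26 in Yoda1 4 and 0.10 in Yoda1 5, so the relation was not limited to mitosis genes. The points of 1 library share its RNA and preparation, and these values are descriptions without a test. The 27 longer genes had a median deviation of -0.20 in Yoda1 6 and the 28 shorter ones of 0.02, split at a median exon length of 4934 bases. Long genes such as Mki67, Cenpf and Espl1 were lowest in Yoda1 6, and short ones such as Ccnb2 and Pttg1 were highest there. Other genes went the opposite way: the longer Kif15 and Nuf2 were highest in Yoda1 6, and the shorter Bub1b and Ttk were lowest. Without Yoda1 6 the log2 fold change was -0.41 for Mki67, -0.93 for Cenpf and -0.19 for Espl1, and -1.15 for Ccnb2 and -1.10 for Pttg1, with adjusted p of 0.193, 0.0373, 0.742, 0.00654 and 0.0266.

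**Figure D5:**
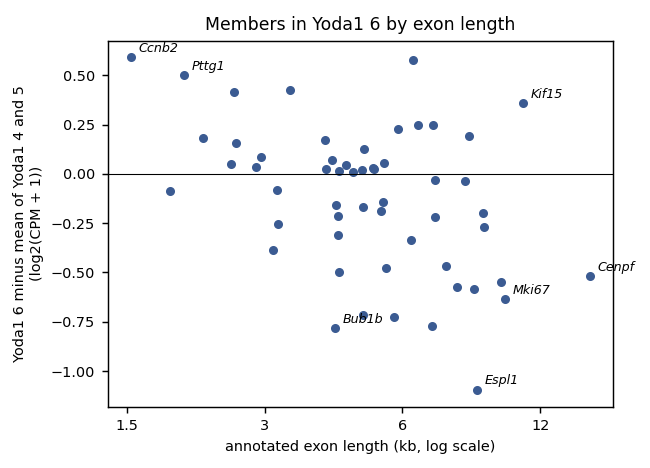
Difference of Yoda1 6 from the mean of Yoda1 4 and 5 in log2(CPM + 1) (y axis) against annotated exon length in kb on a log scale (x axis) for the 55 genes. The deviation tends to fall with length, with Spearman's correlation of -0.39. Exceptions lie on both sides, such as the longer Kif15 and Nuf2 above 0 and the shorter Bub1b and Ttk below 0.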

How the data were processed

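Bulk RNA-seq of 6 ILC2 libraries was analysed from 1 table of expected counts per gene deposited by the authors, that is estimated read counts that need not be whole; 57.1% to 66.5% of a library's values were whole within 0.001. The build was mm10 per the submitters' processing notes, and Partek was used per the name of the deposited table; aligner, counter, strand setting and annotation are not given in these sources. Counts were rounded and tested with edgeR 4.0.16 in R 4.3.3: genes were filtered with filterByExpr (at least 10 counts, total of at least 15) and scaled by TMM, then glmQLFit and glmQLFTest were run with no covariate and p adjusted by Benjamini-Hochberg over all 13325 tested genes, with a threshold of 0.05. A log2 fold change is Yoda1 over DMSO, and its standard error is its size over the root of F. Where a parenthesis gives only an adjusted p, it is from this fit. The script was run on simulated counts drawn with less spread between libraries than the data showed, which checks the code and not the calls made here. A count of 0 allows 0.0949 to 0.211 CPM (3 counts of the total, counting error only). Within groups, each pair of libraries had a chi-square of at least 19.27 per degree of freedom, so no pair agreed within sampling noise.

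The genes, their roles and the lists were chosen with earlier results of these data known. By the naming rule, each role shows the values of all 6 libraries for the genes with the 2 smallest p and the largest p (all of them in roles of up to 4), plus Mki67, Top2a, Foxm1 and Cdc20. Of each other list it shows up to 4 genes that passed, or up to 2 where none did, plus Cdkn1a and Mybl2. Gene positions and exon lengths came from GENCODE M21 on GRCm38, and promoters from RefSeq. Motifs were searched on both strands. Alternatives were other scaling factors, DESeq2 1.42.0, voom in limma 3.58.1, other filters, a term for the label suffix, glmTreat with a 1.5-fold null, sums of the libraries that share a label number, and fits that leave out 1 library each. DMSO 1 alone against Yoda1 was added after seeing the data.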

Additional observations from a re-analysis of the deposited data

How the results depend on the processing

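No paired analysis was possible because the libraries are numbered 1 to 3 with DMSO and 4 to 6 with Yoda1, so no number is shared between the groups. The median log2 fold change of the 55 genes stayed between -0.78 and -0.66 under every alternative run, with 53 to 55 negative values, and no alternative called 1 of them higher. The number called lower, 25 in the reported fit, was 25 with RLE factors, 30 with upper quartile factors and 26 without factors. It was 31 with limma voom and 18 without a filter, and it moved to 39 with DESeq2 and 38 with a filter of 10 CPM in 3 libraries. Of all tested genes, 0.916%, 1.31%, 0.916%, 1.34%, 0.473%, 4.54% and 3.40% were called lower in these fits, in the same order. The number of the 55 called lower was 0 with glmTreat against a 1.5-fold change (25 at an unadjusted p under 0.05), with 0.075% of all tested genes called lower. It was also 0 with libraries of a shared label number summed (44), both fits in edgeR. It ran from 0 to 22 with each library left out in turn. The share of all tested genes at an unadjusted p under 0.05 was not computed for these alternatives. The fits with the suffix term and with DMSO 1 alone compare Yoda1 with 1 control library. For the 55 genes, the fold changes of these fits are therefore given without a number called lower. Their counts over all tested genes are listed below only as a record, and no conclusion is drawn from them. Of all tested genes, 123 were called lower and 76 higher. The counts lower and higher were 452 and 414 with DESeq2, 290 and 158 with the 10 CPM filter, 10 and 6 with glmTreat, 1 and 2 with the suffix term, 0 and 1 with summed libraries, and 0 and 0 with DMSO 1 alone. Higher calls were 121 with limma voom and 50 without a filter, and leaving out a library gave 5 to 146 lower and 4 to 74 higher. The other pathway lists, of 66, 15, 25, 10 and 6 genes, held 6 genes called lower and 0 higher in the reported fit. Of all tested genes, 0.923% were called lower there and 0.57% higher. The lists held 11 lower with upper quartile factors, 26 lower and 3 higher with DESeq2, 11 lower with limma voom and 21 lower with the 10 CPM filter. In these fits 1.31%, 4.54%, 1.34% and 3.40% of all tested genes were called lower, in that order. The lists held 0 lower with glmTreat or summed libraries, and 0 to 5 lower with a library left out. The sign changed for Bub3, to -0.0469 with upper quartile factors, -0.0032 without factors, -0.0049 with voom, -0.0284 with the 10 CPM filter, -0.0265 without DMSO 3, and -0.0825 to 0.0605 with a library left out, lowest without Yoda1 6, and -0.0021 with DMSO 1 alone, and for Kif4, to 0.077 with the suffix term. Fewer libraries in a fit, or fewer genes tested, are part of how these alternatives are made, and other causes were not tested. Groups of 3 libraries that may not be independent limit every call.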

Other observations

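By exon length, the median log2 fold change of Yoda1 over DMSO was -0.76 in the 28 shorter of the 55 mitosis and cytokinesis genes, 16 of them called lower, and -0.60 in the 27 longer ones, 9 of them called lower. Spearman's correlation between fold change and exon length was 0.25 over the 55 genes and 0.09 over 13003 tested genes, as a description over genes that share the same libraries. Some exon sequence was shared with another annotated gene in 18 of the 55 genes, and it reached 20% of the exon length only in Ube2c and Kif20a. Among the 66 further mitosis genes, 45% of 60 promoter windows held TTTGAA, 66.7% held CCAAT and 16.7% held the E2F-type letters GCGGGAA, which were in 2.04% of the windows of the 55 genes.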
